A study of Mus musculus with 78 samples.

Results

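The genes described here are the chemokines and chemokine receptors of mouse liver, 50 of the 19938 genes measured. They were chosen by name: the array's probe table gives them a single symbol that is Ccl, Cxcl, Ccr or Cxcr followed directly by a digit, or that begins with Cx3c. The 33 ligands comprise 19 CC chemokines, 13 CXC chemokines and Cx3cl1, and the 17 receptors comprise 10 CC receptors, 6 CXC receptors and Cx3cr1. A gene with several probe sets was represented by the one with the highest mean over all 78 arrays, a choice among 5 probe sets for Ccl19 and 2 for Ccl25. Another 7 probe sets that carry a symbol of the family together with other symbols were not used.

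Liver RNA of 78 female mice was hybridised to Affymetrix arrays, 1 mouse per array, and is given as log2 expression. The age series compared 4 Npc1-/- mice, from BALB/cNctr-Npc1m1N/J stock, with 4 Npc1+/+ littermates at each of 6 ages, every 2 weeks between 1 week and 11 weeks, all born to heterozygous parents. The 12-week set held 6 groups of 5 BALB/cJ mice, all Npc1+/+: an Npc1 antisense oligonucleotide (Npc1 oligo) with the antioxidant N-acetyl-cysteine (NAC), a control oligo with NAC, the Npc1 oligo alone, the control oligo alone, mice fasted overnight, and untreated mice. Oligos and NAC were given for 4 weeks from 8 weeks of age, so those groups differ from the Npc1-/- mice in age, substrain and the duration of Npc1 loss. Some livers of the 12-week set were frozen and others kept in RNAlater, and which is not stated per mouse. Npc1 encodes the lysosomal protein that exports cholesterol, and its loss is the cause of most Niemann-Pick disease type C.

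Chemokines are small secreted proteins that steer migrating leukocytes by binding G-protein-coupled receptors on them. In liver they are made by Kupffer cells, the resident macrophages, and by sinusoidal endothelial cells, stellate cells, hepatocytes and leukocytes that have entered the organ. Many of the inflammatory members are switched on through NF-kB or interferon signalling, while others, such as Cxcl12, are made constantly by stromal and endothelial cells.

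The level of Npc1 was lower in Npc1-/- than in Npc1+/+ livers at every age, with log2 differences of -1.11 to -1.72. The difference was -2.97 for the Npc1 oligo over the control oligo, -2.08 when both were given with NAC, and -1.03 for control oligo + NAC over the control oligo alone. Hepatocyte markers were high in every group, with a list mean of at least 12.6. Signal of another organ was highest in 3 arrays: pancreas acinar markers averaged 8.46 and 8.44 in mice 1 and 2 of the Npc1+/+ group of 3 weeks, and skeletal muscle markers averaged 9.16 in mouse 3 of the Npc1-/- group of 1 week. In the other arrays these means reached at most 6.48 for pancreas and 6.56 for muscle, some of them also above the rest of their group, and those arrays were kept throughout. The original names of mice 3 and 4 of the Npc1+/+ group of 1 week number them apart from the rest. Mouse 3 of the Npc1 oligo + NAC group had the lowest macrophage marker mean of its group, 7.87, against a group median of 8.56. The 12 members called in the contrast averaged over ages were the same 12 without the 3 arrays and the 2 numbered apart, and the calls at 1 and 3 weeks are also given without the arrays concerned. In a piece of whole liver, fewer cells of a type and less RNA per cell cannot be told apart.

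Promoter sequences are shown for a pair of interferon-inducible ligands whose patterns parted with age, Cxcl10 and Cxcl9, and for Ccr3, the receptor that was lower at every age; the 3 were chosen after their values were seen. Each is the 250 bases before the start of the gene, 5′ to 3′ on the gene's strand, from RefSeq (build GRCm38.p6), with motif matches in capitals. Cxcl10 lies on the minus strand at chr5:92348890-92349139, Cxcl9 on the minus strand at chr5:92328080-92328329 and Ccr3 on the plus strand at chr9:124021721-124021970.
Cxcl10: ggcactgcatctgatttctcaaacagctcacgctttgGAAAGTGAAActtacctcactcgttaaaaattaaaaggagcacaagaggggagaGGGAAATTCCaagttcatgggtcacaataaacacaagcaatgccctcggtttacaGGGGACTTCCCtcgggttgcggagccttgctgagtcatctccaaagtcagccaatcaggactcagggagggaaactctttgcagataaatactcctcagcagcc
Cxcl9: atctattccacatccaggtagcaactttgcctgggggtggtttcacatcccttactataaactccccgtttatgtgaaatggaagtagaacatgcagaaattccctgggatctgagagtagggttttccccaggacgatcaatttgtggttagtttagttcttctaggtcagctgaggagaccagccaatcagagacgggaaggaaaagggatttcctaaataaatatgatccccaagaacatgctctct
Ccr3: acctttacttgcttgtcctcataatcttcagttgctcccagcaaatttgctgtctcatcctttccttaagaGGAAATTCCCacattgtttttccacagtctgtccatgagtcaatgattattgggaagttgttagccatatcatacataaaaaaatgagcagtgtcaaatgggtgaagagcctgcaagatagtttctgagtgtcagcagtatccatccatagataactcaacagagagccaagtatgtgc

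The windows of 36 members, 1 each from the RefSeq promoter table, were searched on both strands, overlapping matches counted, for the NF-kB consensus and for the core of the interferon-stimulated response element (ISRE). The NF-kB consensus was in 9 of the 36 windows (25%) and in 7.01% of 27025 promoters of the same length. The ISRE core was in 3 of 36 (8.33%, against 3.04% of all). Cxcl10 held 3 NF-kB matches, a pair of them overlapping, and 1 ISRE match. Ccr3 held 1 NF-kB match. Neither motif was found in the Cxcl9, Cxcr4, Ccl3, Ccl6, Cxcl12 and Cx3cr1 windows. Ccl5, Ccl24, Cxcl11 and Cxcl16 had no listed window and were not searched. These matches are letters in a window and were not tested as binding sites.

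Most of the family was measured at low levels. The mean over 78 arrays lay above the median of all values, 5.54, for 18 of the 50 genes (36.0%), against 57.0% of all 19938 genes. Among ligands 14 of 33 lay above it and among receptors 4 of 17, while 23 of the 50 genes did not exceed it in any array. The 14 ligands were Ccl5, Ccl6, Ccl9, Ccl11, Ccl19, Ccl24, Ccl25, Cxcl1, Cxcl9, Cxcl10, Cxcl11, Cxcl12, Cxcl16 and Cxcl17, and the 4 receptors were Ccr3, Cx3cr1, Cxcr3 and Cxcr4. The values carry no detection calls, so a gene below 5.54 is called low here and not absent.

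The 3 highest means were those of Cxcl12 at 9.60, Ccl9 at 9.01 and Ccl6 at 7.51. Cxcl12 is the ligand of Cxcr4, and Ccl6 and Ccl9 are ligands of Ccr1 that are known from rodents. Cxcl12 ranged from a group mean of 9.08 in Npc1-/- mice of 11 weeks to one of 10.04 in Npc1+/+ mice of 9 weeks. Ccl9 ranged from 8.24 with Npc1 oligo + NAC to 9.46 in Npc1-/- mice of 5 weeks. Ccl6 ranged from 6.35 in Npc1+/+ mice of 7 weeks to 8.93 with the Npc1 oligo, a far wider span. Levels of different genes come from different probes, and their order is only approximate.

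**Figure D1:**
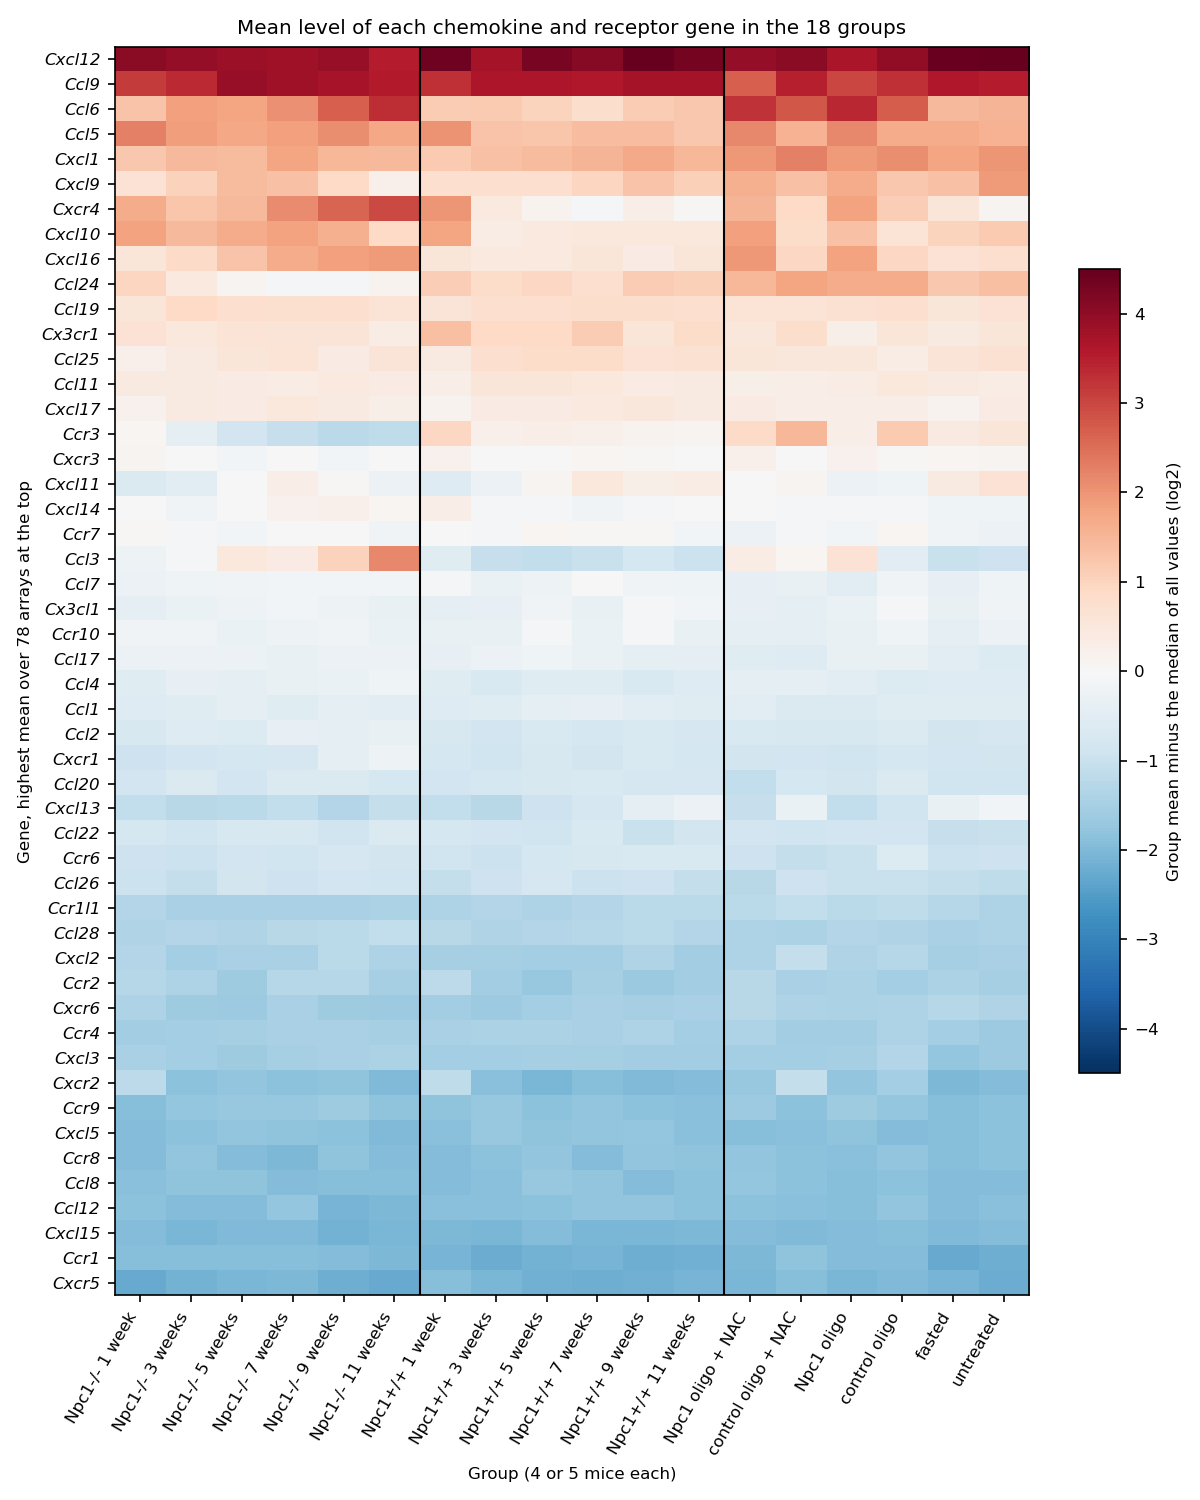
Mean log2 level of the 50 genes in the 18 groups, drawn as the difference from the median of all values (5.54; red above, blue below), with genes ordered by their mean over 78 arrays. Cxcl12 and Ccl9 are high in every group, 23 genes do not exceed the median in any array, and Cxcr4, Ccl3, Ccl6, Cxcl16 and Ccr3 vary most visibly with genotype.

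A gene was tested where its value exceeded 5.54 in at least 4 arrays of a fit, which kept 23 of the 50 members in the age series (17 ligands and 6 receptors), 22 in the 12-week mice and 24 in a fit of all arrays together. Averaged over the 6 ages, 6 of the 23 were higher in Npc1-/- than in Npc1+/+ livers and 6 were lower at a limma adjusted p under 0.05. Of all genes tested 52.6% passed, 26.0% higher and 26.6% lower, so the share of members was near that of the array as a whole. With arrays centred on their medians or quantile-normalised the counts were 6 higher of 16 passing. The members that rose were Cxcr4, Ccl3, Ccl6, Cxcl10, Cxcl16 and Ccl5, and those that fell were Ccr3, Ccl24, Cx3cr1, Cxcl12, Cxcl11 and Ccl25.

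The number of members that passed differed by age. At 1 week 2 of 23 members passed, both receptors and both lower in Npc1-/- livers (5.69% of all genes passed, 2.91% higher and 2.78% lower), and 6 had an unadjusted p under 0.05. At 3 weeks 6 rose and 4 fell (of all genes 15.7% passed, 8.90% higher and 6.84% lower). At 5 weeks 7 rose and 3 fell (12.6% of all genes, 9.69% higher and 2.88% lower). At 7 weeks 7 rose and 3 fell (25.3%, 14.3% higher and 11.0% lower), as at 9 weeks (33.2%, 17.6% higher and 15.5% lower). At 11 weeks 5 rose and 6 fell (39.3%, 18.8% higher and 20.5% lower). Under quantile normalisation the split was 7 higher of 12 passing at 5 weeks and 6 of 12 at 9 weeks. Without Npc1+/+ mouse 1, the 1-week count was 4, with Ccl5 higher (0.41, limma adjusted p = 0.0130) and Cxcl14 lower (-0.36, adjusted p = 0.0474). Without the 2 Npc1+/+ arrays with pancreas signal, 8 of the 10 members called at 3 weeks passed, and Ccl24 and Cx3cr1 did not.

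Among the ligands, Ccl3 (MIP-1alpha, which attracts monocytes and neutrophils through Ccr1 and related receptors) changed most. At 11 weeks its log2 values were 8.11, 7.22, 7.67 and 7.75 in the Npc1-/- mice, against 4.67, 4.54, 4.60 and 4.50 in the Npc1+/+ mice. The genotypes did not overlap (3.11 ± 0.16, SE, n = 4 each, limma adjusted p = 7.41e-21). Every Npc1+/+ value was below the array median, where differences may be compressed, so the size is less certain. At 1 week the values were 5.14, 5.16, 5.32 and 5.58 in Npc1-/- mice, against 5.15, 4.84, 5.05 and 4.89 in Npc1+/+ mice, which overlapped and did not pass (0.32 ± 0.16, limma adjusted p = 0.275). From 3 weeks on the Npc1-/- mice were higher without overlap at each of 5 ages, by 0.99, 1.61, 1.39, 1.83 and 3.11. Ccl3 averaged 5.37 over all 78 arrays, and in the age series it met the threshold for testing only through Npc1-/- mice. At 3 weeks the Npc1-/- mean was itself below 5.54. The Npc1-/- group mean was 5.49 ± 0.22 at 3 weeks, 6.03 ± 0.32 at 5, 5.92 ± 0.16 at 7, 6.59 ± 0.28 at 9 and 7.69 ± 0.36 at 11 weeks (SD, n = 4). The genotype difference grew by 0.23 ± 0.02 (SE) per week (limma adjusted p = 8.97e-14).

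Ccl6, a macrophage and granulocyte ligand of the mouse, followed a similar course at a higher level. In 11-week mice it was 8.98, 8.77, 8.76 and 8.95 in Npc1-/- livers, against 6.67, 6.64, 6.98 and 6.79 in Npc1+/+ livers. All Npc1-/- values stood above all Npc1+/+ values, a 4.28-fold difference (2.10 ± 0.13 on the log2 scale, SE, n = 4 each, limma adjusted p = 6.15e-18). The difference was 0.12 at 1 week, where the groups overlapped and the test was not passed, and 0.65, 0.77, 1.24 and 1.53 at 3, 5, 7 and 9 weeks, each passed without overlap. It grew by 0.19 ± 0.02 (SE) per week (limma adjusted p = 2.04e-13).

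Cxcl16 is the ligand of Cxcr6 and, as a membrane protein of macrophages, a scavenger receptor for oxidised lipoprotein. At 1 week it was 5.97, 6.09, 6.05 and 6.25 in Npc1-/- livers, against 6.08, 6.20, 5.85 and 6.27 in Npc1+/+ livers, with full overlap. At 11 weeks it was 7.51, 7.24, 7.45 and 7.58 in Npc1-/- livers, against 6.06, 6.05, 6.11 and 6.09 in Npc1+/+ livers. The Npc1+/+ mice lay close together at 11 weeks and the Npc1-/- mice were 2.58-fold higher (1.37 ± 0.10, SE, n = 4 each, limma adjusted p = 7.61e-15). The rise passed at 5 of 6 ages, first at 3 weeks with overlap (0.44) and then without it at 5, 7 and 9 weeks (0.86, 1.12 and 1.46). Its receptor Cxcr6, found on T and NKT cells, was too low to test, with group means of 3.90 to 4.30 over the 18 groups.

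Ccl5 (RANTES), made by T cells, NK cells and macrophages, rose less. In 9-week mice it was 7.63, 7.36, 7.58 and 7.89 in Npc1-/- livers, against 6.86, 6.86, 7.23 and 6.75 in Npc1+/+ livers. The groups did not overlap at 9 weeks (0.69 ± 0.11, SE, n = 4 each, limma adjusted p = 2.37e-06), nor at 3, 5, 7 and 11 weeks, where the differences were 0.60, 0.50, 0.46 and 0.51. A variation of its difference between ages was not detected (limma adjusted p = 0.305). T cell markers stayed low in the same livers, with list means of 4.91 to 5.17 in Npc1-/- mice and 4.92 to 5.22 in Npc1+/+ mice. Of 12 on the arrays 4 were tested, and 0 rose and 2 fell in the averaged contrast (26.0% and 26.6% of all genes). NK cell markers were low too, with list means of 3.93 to 4.46 in Npc1-/- mice and 3.91 to 4.32 in Npc1+/+ mice. Macrophage markers are given below. The part of these cells in the result was not tested.

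**Figure D2:**
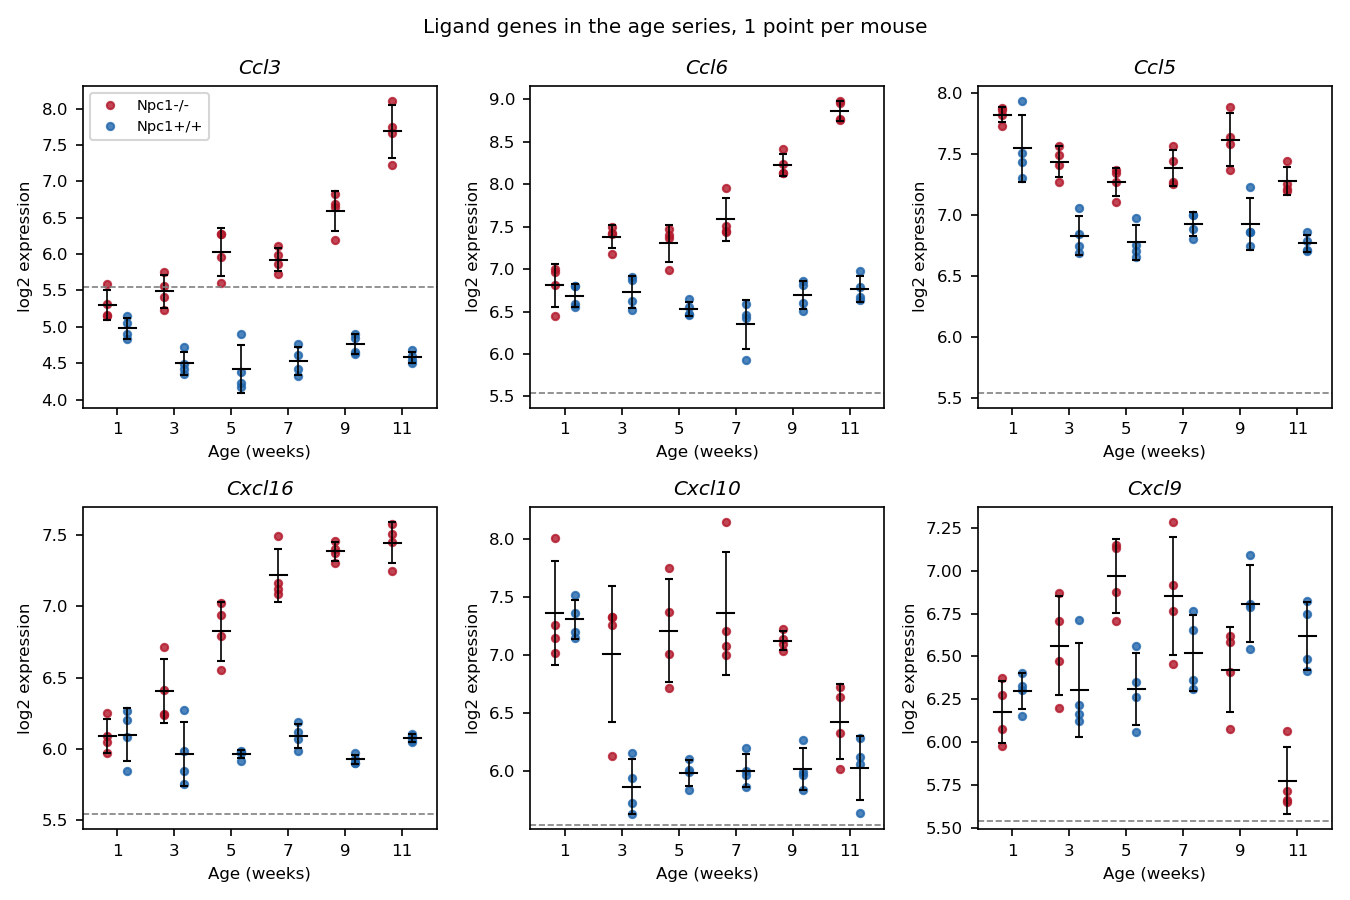
Log2 expression of 6 ligand genes by age in weeks, 1 point per mouse, Npc1-/- (red) left of Npc1+/+ (blue). Black bars are the group mean ± SD of 4 mice and the dashed line is the median of all values (5.54). Ccl3, Ccl6 and Cxcl16 climb with age in Npc1-/- livers, Cxcl10 differs between 3 and 9 weeks, and Cxcl9 is higher in Npc1-/- livers at 5 weeks and lower at 11 weeks.

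The 3 ligands of Cxcr3, the receptor of activated T cells and NK cells, did not move together. Cxcl10 was 7.00, 7.21, 8.14 and 7.08 in Npc1-/- livers at 7 weeks, against 5.86, 5.97, 6.20 and 6.00 in Npc1+/+ livers, without overlap (1.35 ± 0.22, SE, n = 4 each, limma adjusted p = 5.59e-06). It also rose at 3, 5 and 9 weeks (1.15, 1.22 and 1.11). At 1 week both genotypes were high, at 7.36 ± 0.45 in Npc1-/- and 7.31 ± 0.17 in Npc1+/+ mice, and at 11 weeks the difference was 0.40 ± 0.22 and did not pass (limma adjusted p = 0.159). The variation of its difference between ages passed in all age arrays (limma adjusted p = 0.00371) and not without the 5 arrays named above.

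Cxcl9 went in both directions. At 5 weeks it was 7.15, 7.14, 6.71 and 6.88 in Npc1-/- livers, against 6.56, 6.27, 6.06 and 6.35 in Npc1+/+ livers, higher without overlap (0.66 ± 0.16, SE, n = 4 each, limma adjusted p = 0.00253). At 11 weeks it was 5.66, 6.06, 5.71 and 5.65 in Npc1-/- livers, against 6.48, 6.82, 6.75 and 6.42 in Npc1+/+ livers, lower without overlap (-0.84 ± 0.16, limma adjusted p = 2.21e-05). Its averaged difference was -0.02 and did not pass, and the slope of the difference was -0.08 per week (limma adjusted p = 0.000505). Cxcl11 fell at 11 weeks (-0.60 ± 0.16, limma adjusted p = 0.00275), with 5.43, 5.17, 5.18 and 5.28 in Npc1-/- livers, all below the array median, against 6.14, 6.05, 5.62 and 5.65 in Npc1+/+ livers. Cxcr3 itself had group means of 5.43 to 5.76 over the 18 groups and passed in no comparison that used all mice.

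The eosinophil receptor Ccr3 and one of its ligands, Ccl24 (eotaxin-2), were lower in Npc1-/- livers. At 1 week Ccr3 was 5.88, 5.72, 5.49 and 5.44 in Npc1-/- mice, against 6.50, 6.55, 6.59 and 6.25 in Npc1+/+ mice. The genotypes were already apart there (-0.84 ± 0.14, SE, n = 4 each, limma adjusted p = 5.11e-05), also without the array with muscle signal (-0.80) and without the 2 Npc1+/+ arrays numbered apart (-0.90). At 9 weeks Ccr3 was 4.47, 4.42, 4.13 and 4.25 in Npc1-/- mice, against 5.35, 6.04, 5.77 and 5.67 in Npc1+/+ mice (-1.39 ± 0.14, limma adjusted p = 3.70e-11). No Npc1-/- value reached the lowest Npc1+/+ value of its age at any of the 6 ages. From 3 weeks on all Npc1-/- values lay below the array median, so the sizes of those differences are less certain.

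Ccl24 did not differ detectably at 1 week (-0.15 ± 0.14, limma adjusted p = 0.661) and fell at the 5 later ages. At 9 weeks it was 5.60, 5.46, 5.10 and 5.67 in Npc1-/- livers, against 6.71, 6.66, 6.55 and 6.80 in Npc1+/+ livers (-1.22 ± 0.14, SE, n = 4 each, limma adjusted p = 1.01e-09). The genotypes did not overlap at 5, 7, 9 and 11 weeks. At 3 weeks they did overlap (-0.39), and that call was lost on leaving out Npc1-/- mouse 2, 3 or 4 or Npc1+/+ mouse 1, 2 or 3 (largest limma adjusted p = 0.164). Ccl11 (eotaxin-1), the other eotaxin tested, had an averaged difference of -0.06 ± 0.04 (SE, limma adjusted p = 0.222).

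Cxcr4, the receptor of Cxcl12 on leukocytes and their progenitors, rose more than any other receptor tested, while Cxcl12 fell. At 11 weeks Cxcr4 was 8.41, 8.20, 8.30 and 9.06 in Npc1-/- livers, against 5.83, 5.74, 5.30 and 5.44 in Npc1+/+ livers, a 7.54-fold difference without overlap (2.91 ± 0.15 on the log2 scale, SE, n = 4 each, limma adjusted p = 2.15e-20). At 1 week it was 7.17, 7.45, 7.08 and 7.20 in Npc1-/- livers, against 7.05, 7.42, 7.78 and 7.78 in Npc1+/+ livers, overlapping and high in both (-0.29 ± 0.15, limma adjusted p = 0.328). The Npc1-/- mean was 6.80, 6.99, 7.67, 8.15 and 8.49 from 3 to 11 weeks, while the Npc1+/+ mean was 5.97 ± 0.09 at 3 weeks and 5.45 to 5.84 afterwards. The rise passed without overlap at each of these 5 ages, and the difference grew by 0.31 ± 0.02 (SE) per week (limma adjusted p = 4.80e-18).

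At 11 weeks Cxcl12 was 9.11, 9.22, 9.10 and 8.90 in Npc1-/- livers, against 9.91, 9.99, 9.87 and 9.64 in Npc1+/+ livers, lower without overlap (-0.77 ± 0.15, SE, n = 4 each, limma adjusted p = 4.72e-05). It fell at 9 weeks too (-0.59, without overlap). At 5 weeks it fell with overlap (-0.45), a call lost on leaving out mouse 2, 3 or 4 of either genotype (largest limma adjusted p = 0.152). At 3 weeks the difference was 0.21 ± 0.15 and at 7 weeks -0.26 ± 0.15, and neither passed. Of the sinusoidal endothelial markers 13 of 14 fell and 1 rose in the averaged contrast (26.6% and 26.0% of all genes). At 11 weeks their list mean was 7.55 to 7.77 in Npc1-/- mice, against 7.91 to 8.04 in Npc1+/+ mice. They did not follow Cxcl12 at every age: at 3 weeks the list averaged 7.89 in Npc1-/- and 8.23 in Npc1+/+ mice, and at 5 weeks 7.89 in both. Their part in the Cxcl12 result was not tested.

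Cx3cr1, the fractalkine receptor of monocytes and some tissue macrophages, fell at 1, 3, 7 and 11 weeks. At 1 week it was 6.39, 6.08, 6.09 and 6.22 in Npc1-/- livers, against 6.61, 7.01, 6.91 and 6.99 in Npc1+/+ livers, without overlap (-0.69 ± 0.11, SE, n = 4 each, limma adjusted p = 2.04e-05). The difference was -0.65 without the array with muscle signal and -0.62 without the 2 Npc1+/+ arrays numbered apart, and passed in both fits (larger limma adjusted p = 0.00460). At 9 weeks it was 6.02, 6.23, 6.17 and 6.05 in Npc1-/- livers, against 6.18, 6.00, 5.96 and 6.23 in Npc1+/+ livers, with no detectable difference (0.02 ± 0.11). The 3-week call was lost without the 2 Npc1+/+ arrays with pancreas signal. Its ligand Cx3cl1 was below the array median in most mice and was not tested in the age series. Ccl25, the gut and thymus ligand of Ccr9, fell by 0.22 in the averaged contrast and passed at 3 weeks alone of the single ages (-0.34), a call lost on leaving out Npc1-/- mouse 2 or 4 or Npc1+/+ mouse 3 or 4 (largest limma adjusted p = 0.116).

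**Figure D3:**
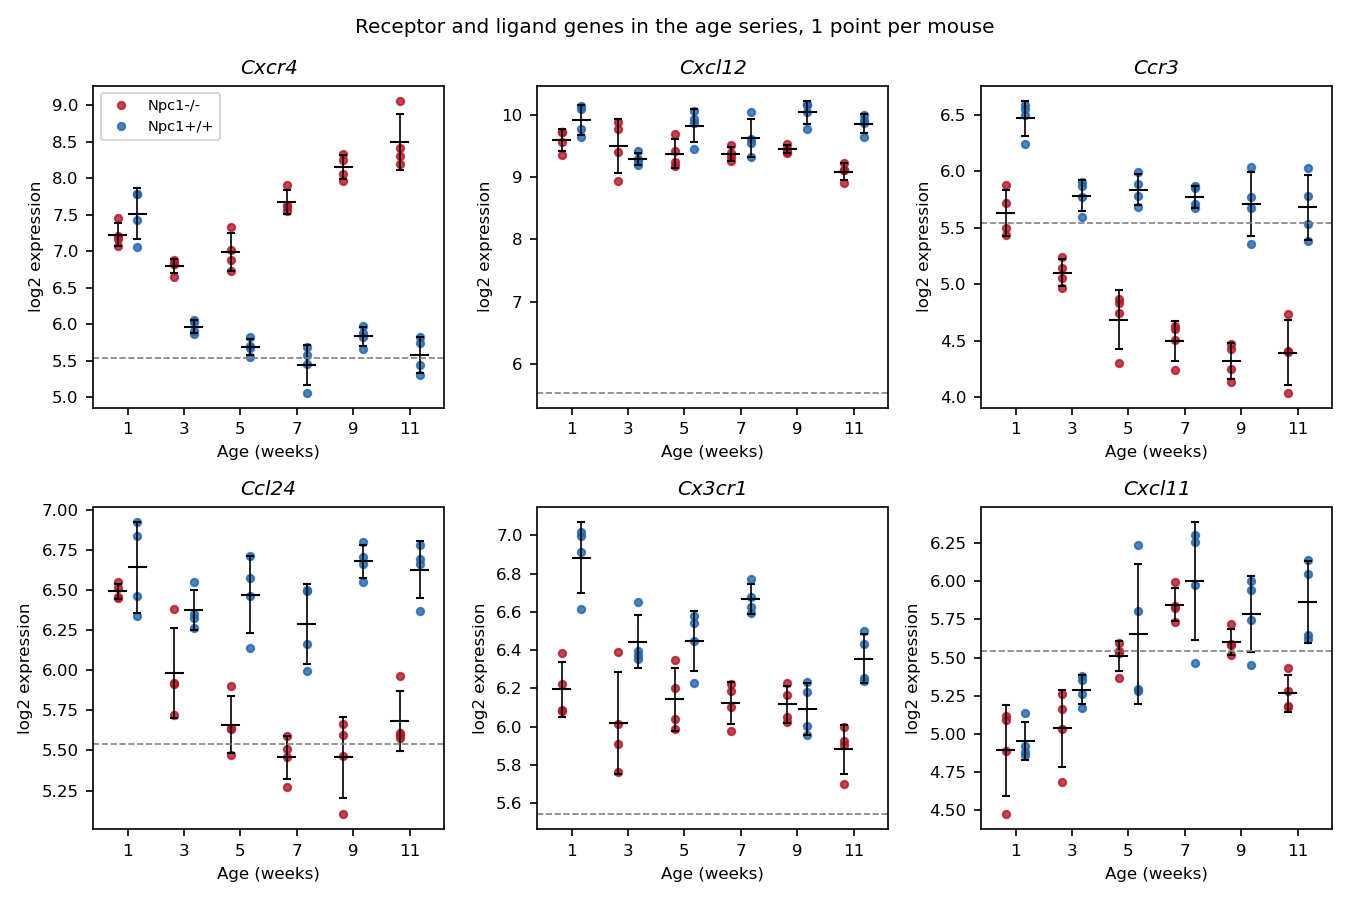
Log2 expression of 3 receptor genes and 3 ligand genes by age in weeks, 1 point per mouse, Npc1-/- (red) left of Npc1+/+ (blue). Black bars are the group mean ± SD of 4 mice and the dashed line is the median of all values (5.54). Cxcr4 is higher in Npc1-/- livers from 3 weeks on, and Ccr3 is lower at every age.

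The other members tested in the age series moved little. Ccl9, Cxcl1 (a neutrophil attractant), Ccl7, Ccl11, Ccl19, Cxcl14, Cxcl17, Cxcr3, Ccr7 and Ccr10 had averaged differences of -0.09 to 0.06 and did not pass. Cxcl14 was higher at 7 weeks (0.34) and 9 weeks (0.28). The 7-week call was lost without Npc1-/- mouse 1 (limma adjusted p = 0.0517), and the 9-week call was lost on leaving out any of 5 mice (Npc1-/- mice 1 and 3, Npc1+/+ mice 2, 3 and 4; largest limma adjusted p = 0.229). The genes of Ccl5, Ccl9, Ccl6, Ccl3 and Ccl4 follow one another on chromosome 11 in the RefSeq annotation of GRCm38.p6. Of these neighbours Ccl5, Ccl6 and Ccl3 rose in the averaged contrast while Ccl9, between Ccl5 and Ccl6, was at -0.03 ± 0.06 (SE, limma adjusted p = 0.727).

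The slope of the genotype difference over the 6 ages passed for 9 of 23 members (28.9% of all genes). It was positive for 5 of them (14.9% of all genes), Cxcr4, Ccl3, Ccl6, Cxcl16 and Cxcl14 (0.05 per week). It was negative for 4 (14.0% of all genes), Ccl24 (-0.09), Cxcl9, Ccr3 (-0.06) and Cxcl12 (-0.06).

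The 27 members below the threshold of the age series were looked at only in a fit without it, in which 36.1% of all genes passed, 17.8% higher and 18.3% lower. There 5 were higher in the averaged contrast, namely the monocyte attractant Ccl2 (0.24), Ccl4 (0.24), Ccr1 (0.20), Ccr2 (0.14) and Cxcr1 (0.12), and 2 were lower, Cxcl13 (-0.39) and Ccr1l1 (-0.12). Cxcl13, the B cell attractant, was 4.48 ± 0.22 in Npc1-/- livers at 11 weeks and 5.29 ± 0.14 in Npc1+/+ livers (SD, n = 4 each). Ccl2 was 5.22 ± 0.09 in Npc1-/- livers at 11 weeks and 4.80 ± 0.10 in Npc1+/+ livers. These values lie below the array median in both genotypes, and differences there may understate any change.

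Other genes of the pathway were followed as lists, where 26.0% of all genes tested rose and 26.6% fell in the averaged contrast. Of 25 genes for signalling downstream of chemokine receptors, all tested, 22 rose and 0 fell in the averaged contrast, including Rgs1 (1.22), which ends G-protein signals, and Vav1 (0.85) and Dock2 (0.81), which activate Rac. Of 13 leukocyte adhesion genes tested 9 rose and 1 fell, with the leukocyte integrin chains Itgb2 at 1.82 and Itga4 at 0.84 and Vcam1, an endothelial ligand of Itga4 integrins, at 1.09. Of 10 other chemoattractant ligands and receptors tested 6 rose and 2 fell, led by the complement receptor C3ar1 (2.13) and the atypical receptor Ccrl2 (1.16). Of 11 inflammatory and NF-kB genes tested 6 rose and 1 fell, with Tnfaip3 at 1.00 and Il1b at -0.48. The median averaged difference was 0.36 over the signalling list, 0.45 over the adhesion list on the arrays and -0.01 over the 50 members, against -0.01 over all genes on the arrays.

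Cell type markers also differed between the genotypes. In the averaged contrast 20 of 20 macrophage markers rose, and 7 of 10 Kupffer cell markers fell and 1 rose. Of all genes tested 26.0% rose and 26.6% fell in that contrast. The macrophage list mean was 7.67 to 9.26 in Npc1-/- mice from 3 weeks on, against 6.87 to 7.22 in Npc1+/+ mice, and at 1 week it was 7.68 to 8.02 in Npc1-/- mice, against 7.77 to 7.89 in Npc1+/+ mice. The list of lipid-laden macrophage markers moved most: 13 of 14 rose and 0 fell, with list means at 11 weeks of 9.86 to 10.12 in Npc1-/- mice, against 6.36 to 6.73 in Npc1+/+ mice. Of 8 dendritic cell markers tested 6 rose and 0 fell, with 6.50 to 6.97 in Npc1-/- mice at 11 weeks, against 6.15 to 6.27 in Npc1+/+ mice. Of 11 stellate cell and fibrosis markers tested 7 rose and 1 fell, with 7.47 to 7.75 in Npc1-/- mice at 11 weeks, against 7.04 to 7.21 in Npc1+/+ mice. The Kupffer cell list mean at 11 weeks was 6.61 to 7.02 in Npc1-/- mice, against 7.65 to 7.74 in Npc1+/+ mice. Of 12 neutrophil markers 8 rose in the averaged contrast, 12 rose at 11 weeks (18.8% of all genes), and 5 fell at 1 week (2.78% of all genes). The parts of these cell types in the family's differences were not tested.

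In Npc1+/+ livers 15 of 23 members changed with age (53.3% of all genes passed). Cxcr4 was 7.51 ± 0.35 at 1 week and 5.97 ± 0.09 at 3 weeks, and Cxcl10 was 7.31 ± 0.17 and 5.87 ± 0.24 (SD, n = 4 each). Ccl5 was 7.54 ± 0.27 at 1 week and 6.83 ± 0.16 at 3 weeks, and Ccr3 was 6.47 ± 0.15 and 5.79 ± 0.14. All 4 stood highest at 1 week, and each passed the test over the 6 ages (limma adjusted p = 4.36e-15 for Cxcr4, 2.12e-06 for Cxcl10, 2.70e-07 for Ccl5 and 2.88e-05 for Ccr3). Without the arrays with pancreas signal or numbered apart, 2 mice remained at each of these ages, and the means at 1 and 3 weeks were 7.24 and 5.89 for Cxcr4, 7.17 and 5.79 for Cxcl10, 7.62 and 6.90 for Ccl5, and 6.53 and 5.73 for Ccr3. All 4 passed again (largest limma adjusted p = 0.00502). Cxcl11 ran the other way, with 4.95 ± 0.12 at 1 week and 5.87 ± 0.27 at 11 weeks (limma adjusted p = 2.63e-06). The neutrophil list mean in these mice was 7.26 to 7.67 at 1 week and 4.72 to 4.79 at 11 weeks, and its part was not tested. Without the arrays with other-organ signal or numbered apart, Ccl3, Cxcl1 and Cxcl9 no longer passed (limma adjusted p = 0.167, 0.144 and 0.106), and Ccl24 did (0.0146). Cxcl1 passed in 8 of the 24 fits that left out 1 Npc1+/+ mouse, and Ccl6 and Ccl9 each in 17.

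In the 12-week set, 6 members were higher and 2 lower with the Npc1 oligo than with the control oligo (22.6% of all genes passed, 14.7% higher and 7.88% lower). Under quantile normalisation the split was 5 higher of 8 passing. Ccl3 was 6.33, 5.75, 6.09, 6.82 and 5.95 with the Npc1 oligo, against 5.11, 4.92, 5.50, 5.02 and 4.78 with the control oligo. No value overlapped (1.12 ± 0.23, SE, n = 5 each, limma adjusted p = 0.000728). Every control value lay below the array median, so the size of this difference is less certain too. In the 12-week set Ccl3 met the threshold for testing mainly through Npc1 oligo mice, with or without NAC. The test is therefore of a gene kept through the groups where it was high. The call was kept in all 8 alternative fits that left out no single mouse, the one without that threshold among them (largest limma adjusted p = 0.00208). Cxcl16 was 7.46, 7.26, 6.88, 7.41 and 7.82 with the Npc1 oligo, against 6.51, 6.27, 6.89, 6.53 and 6.17 with the control oligo (0.89 ± 0.16, limma adjusted p = 0.000125). Cxcl16 overlapped at a single pair of mice.

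Cxcr4 was 7.50, 7.10, 6.91, 7.58 and 7.65 with the Npc1 oligo, against 6.85, 6.64, 6.69, 6.58 and 6.43 with the control oligo, without overlap (0.71 ± 0.17, SE, n = 5 each, limma adjusted p = 0.00341). Ccr3 was 5.87, 6.20, 6.31, 5.56 and 5.34 with the Npc1 oligo, against 6.99, 6.52, 6.87, 6.84 and 6.35 with the control oligo (-0.86 ± 0.17, limma adjusted p = 0.000442). It fell without overlap. Ccl6 (0.66), Cxcl10 (0.68) and Ccl5 (0.46) rose and Cxcl12 fell (-0.32), none of them with overlap. The Cxcl10 call was lost without Npc1 oligo mouse 5 or control oligo mouse 2 (largest limma adjusted p = 0.0956), and the Ccl5 call without Npc1 oligo mouse 5 or control oligo mouse 1, 3 or 5 (largest 0.143) and under quantile normalisation (0.0627). Ccl24 was 7.22 ± 0.25 with the Npc1 oligo and 7.21 ± 0.13 with the control oligo (0.02 ± 0.12, limma adjusted p = 0.930). In the same contrast 14 of 19 macrophage markers tested rose and 0 fell (14.7% and 7.88% of all genes), with list means of 8.30 to 8.69 with the Npc1 oligo against 7.69 to 7.95 with the control oligo. Of 13 lipid-laden macrophage markers tested 12 rose and 0 fell, with list means of 7.92 to 8.93 with the Npc1 oligo against 6.76 to 7.08 with the control oligo. The part of these cells was not tested.

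With NAC given to both, 5 members were higher and 2 lower with the Npc1 oligo (25.7% of all genes passed, 11.0% higher and 14.7% lower). Cxcl16 was 7.53, 7.63, 6.74, 7.89 and 7.64 with Npc1 oligo + NAC, against 6.55, 6.71, 6.19, 6.54 and 6.36 with control oligo + NAC, without overlap (1.02 ± 0.16, SE, n = 5 each, limma adjusted p = 1.46e-05). Mouse 3 of the Npc1 oligo + NAC group was the lowest of its group, as it was for Cxcr4 and Ccl6. Ccl9 was 8.13, 8.02, 8.27, 8.39 and 8.39 with Npc1 oligo + NAC, against 8.96, 9.04, 8.98, 9.21 and 8.97 with control oligo + NAC, lower without overlap (-0.79 ± 0.11, limma adjusted p = 4.13e-06). Without NAC Ccl9 did not pass. Its difference there was -0.30 in the fit that left out Npc1 oligo mouse 5 (limma adjusted p = 0.0889).

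Cxcl10 (1.02), Cxcr4 (0.62) and Ccl5 (0.60) rose with NAC in both groups as well, and Ccr3 fell (-0.62). Ccl6 rose by 0.48 ± 0.18 (SE, limma adjusted p = 0.0435), a call lost on leaving out any of 8 of the 10 mice (all but Npc1 oligo + NAC mouse 3 and control oligo + NAC mouse 2; largest adjusted p = 0.179). Without Npc1 oligo + NAC mouse 3, 8 members passed, with Cxcl16 at 1.20, Cxcr4 at 0.86, Ccl6 at 0.74 and Cxcr3 at 0.28. Ccl3 was 5.98, 5.77, 4.96, 6.60 and 6.10 with Npc1 oligo + NAC, against 5.48, 6.63, 5.53, 5.09 and 5.44 with control oligo + NAC, overlapping and not passed (0.25 ± 0.23, limma adjusted p = 0.487). Its highest control value, mouse 2 at 6.63, stood apart, and without that mouse the difference was 0.50 (adjusted p = 0.0915).

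**Figure D4:**
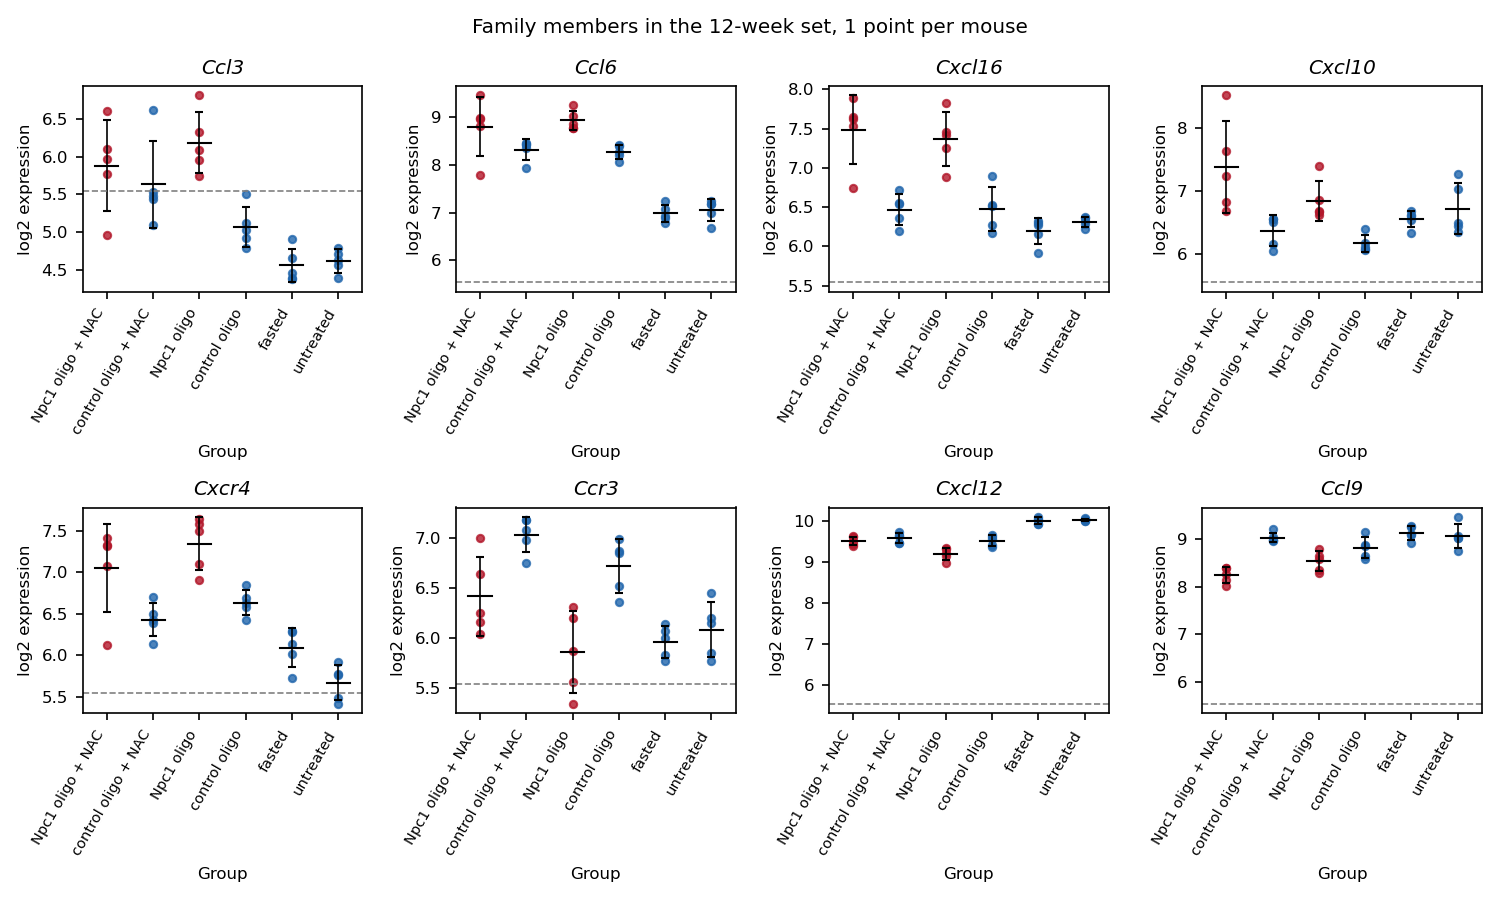
Log2 expression of 8 members in the 6 groups of the 12-week set, 1 point per mouse, Npc1 oligo groups in red and the others in blue. Black bars are the group mean ± SD of 5 mice and the dashed line is the median of all values (5.54). Ccl6 and Cxcr4 are higher in every oligo group than in untreated livers, and Cxcl12 is lower.

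NAC changed few members. With the control oligo 0 of 22 passed in limma (8.50% of all genes, 6.09% higher and 2.41% lower) and 4 had an unadjusted p under 0.05, with Cxcl11 at 0.33 and Cx3cl1 at -0.32 closest to passing. The count was 1 without control oligo + NAC mouse 1, 3 or 4 or without control oligo mouse 1. With the Npc1 oligo 2 rose (7.15% of all genes, 2.88% higher and 4.27% lower) and 6 had an unadjusted p under 0.05. Cxcl12 was 9.42, 9.62, 9.59, 9.38 and 9.51 with Npc1 oligo + NAC, against 9.21, 9.34, 9.32, 9.14 and 8.98 with the Npc1 oligo alone, without overlap (0.31 ± 0.07, SE, n = 5 each, limma adjusted p = 0.00577). Ccr3 rose with overlap (0.56 ± 0.17, adjusted p = 0.0434), a call lost on leaving out Npc1 oligo + NAC mouse 3 or 5 or Npc1 oligo mouse 1, 4 or 5 (largest adjusted p = 0.150). Without Npc1 oligo + NAC mouse 3 the members that passed were Cxcl12 and Cxcl10 (0.72). In the test of whether NAC altered the effect of the Npc1 oligo, 0 of 22 members passed in limma (4.83% of all genes, 1.15% higher and 3.68% lower) and 3 had an unadjusted p under 0.05. That count was 1 without control oligo mouse 3 or Npc1 oligo mouse 3, and 2 without Npc1 oligo + NAC mouse 4.

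Overnight fasting gave no call: 0 of 22 members passed in limma (0.529% of all genes, 0.210% higher and 0.319% lower) and 4 had an unadjusted p under 0.05. The control oligo, by contrast, differed from no treatment in 9 members, 5 higher and 4 lower (26.3% of all genes, 5.05% higher and 21.3% lower). Ccl6 was 8.20, 8.07, 8.40, 8.40 and 8.27 with the control oligo, against 6.67, 7.24, 6.99, 7.19 and 7.18 in untreated mice, a 2.32-fold difference without overlap (1.22 ± 0.18 on the log2 scale, SE, n = 5 each, limma adjusted p = 1.53e-05). Cxcl11 was 5.31, 5.47, 5.37, 5.24 and 5.31 with the control oligo, against 6.37, 5.92, 6.25, 6.07 and 6.27 in untreated mice, lower without overlap (-0.84 ± 0.11, limma adjusted p = 2.68e-06). All the Cxcl11 values with the control oligo lay below the array median.

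Cxcr4 (0.97) rose with the control oligo, and Cxcl12 (-0.50) and Ccl25 (-0.36) fell, each without overlap, and Ccr3 rose with overlap (0.63). The Ccl25 call was lost with the mean of its 2 probe sets (limma adjusted p = 0.325). The direction for Ccr3 was thus opposite to that of the Npc1 oligo over the control oligo (-0.86), a comparison that shares the control oligo mice. The smaller calls turned on single mice. Ccr7 (0.37), the homing receptor for Ccl19, was lost without control oligo mouse 2 or untreated mouse 4, Ccl24 (0.30) without control oligo mouse 1, 3, 4 or 5 or untreated mouse 1, 2 or 3, and Cxcl9 (-0.70) without control oligo mouse 1 or 2 or untreated mouse 3 or 4 (largest limma adjusted p of 0.0809, 0.159 and 0.137). Without untreated mouse 4 the Cxcl9 difference was -0.42. In this contrast 10 of 19 macrophage markers and 6 of 10 Kupffer cell markers rose and 0 of either fell (5.05% of all genes higher and 21.3% lower), and their part was not tested.

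The genotype difference at 11 weeks was set against the oligo difference in a fit of all arrays, where 8 of 24 members passed (27.7% of all genes, 11.7% higher and 16.0% lower), 4 in each direction. With arrays centred on their medians, which shifts all genes by -0.10 in this contrast, 3 of 8 were higher. Cxcr4 was higher by 2.91 in Npc1-/- over Npc1+/+ livers and by 0.71 with the Npc1 oligo over the control oligo, a gap of 2.20 ± 0.24 (SE, limma adjusted p = 1.38e-11). The gap was 1.44 ± 0.22 for Ccl6. For Ccl3 the fitted gap was 1.99 ± 0.29. Its Npc1+/+ and control oligo values all lay below the array median, so the size of that gap is less certain. It was kept for testing mainly through Npc1-/- and Npc1 oligo mice. The gap of Cxcl16 did not pass. The gap was -0.96 ± 0.18 for Ccl24 and -1.28 ± 0.29 for Cxcl9, which were lower at 11 weeks in Npc1-/- livers and did not pass with the oligo. Ccl7 (0.37), Cxcl11 (-0.52) and Cxcl12 (-0.45) passed as well, Ccl7 in 16, Cxcl11 in 6 and Cxcl12 in 7 of the 18 fits that left out 1 mouse (largest limma adjusted p of 0.0626, 0.123 and 0.104). Age, substrain and the means and duration of Npc1 loss differ between these comparisons and cannot be told apart. The references differ too, as the control oligo itself moved several of these members over untreated mice. Ccl6 (1.22), Cxcr4 (0.97) and Ccl24 (0.30) were higher with it, and Cxcl11 (-0.84), Cxcl9 (-0.70) and Cxcl12 (-0.50) were lower. A gap is thus one between differences and not between levels: the highest Ccl6 mean of the 18 groups was 8.93, with the Npc1 oligo. The count was 5 without Npc1-/- mouse 4 of 11 weeks, and also 5 without Npc1+/+ mouse 1 of 11 weeks.

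**Figure D5:**
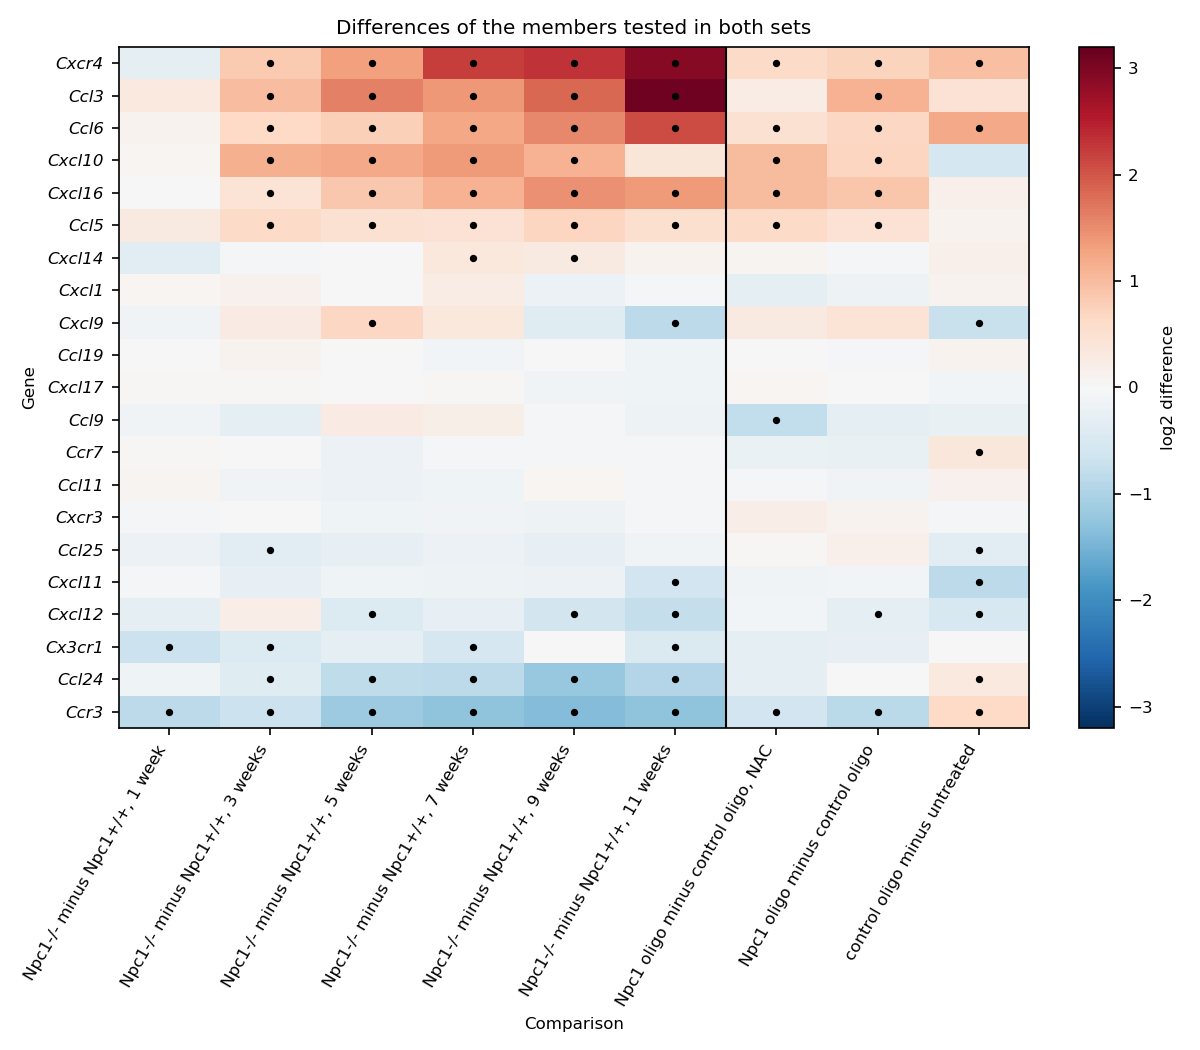
Log2 differences of the 21 members tested in both sets, ordered by the averaged genotype difference. Columns are the genotype difference at each age, the Npc1 oligo over the control oligo with and without NAC, and the control oligo over no treatment, and black dots mark a limma adjusted p under 0.05. Cxcl16, Ccl5 and Cxcl10 carry dots in the genotype and Npc1 oligo columns and none in the control oligo column, whereas Ccl6 and Cxcr4 carry one there too.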

How the data were processed

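Liver RNA of 78 mice was measured on Affymetrix arrays. The deposited values are log2 expression per probe set, and the submitters' processing notes name RMA and Partek 6.5; the mapping of probes to genes beyond the platform table and the genome build are not given in the sources used here. Of 35556 probe sets, 21789 carry 1 gene symbol, 1621 several and 12146 are not listed; the probe set with the highest mean stood for each of 19938 genes. No array column was left unmapped.

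Genes that exceeded 5.54, the overall median, on 4 or more arrays were tested in limma 3.58.1 (R 4.3.3) with lmFit and eBayes, in 1 fit for the age series (12638 genes), 1 for the 12-week set (11900) and 1 for all arrays (12748). P-values were adjusted by Benjamini-Hochberg over all genes tested, with a threshold of 0.05. The same code was tested on simulated data. Precision is limited by 4 or 5 mice per group, and nothing states how extractions or hybridisations were batched.

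The members and lists were chosen with earlier results of these data known. Values are given for up to 15 members past the threshold in the averaged contrast, up to 4 in each other contrast and the 3 with the highest means, and up to 3 genes for each list. Alternatives changed the filter, the scaling of arrays, the choice of probe set, the variance prior, the groups fitted, a replicate block and the mice included. Another promoter motif and 1 gene list that were examined are not reported here. Mice that share a replicate number did not deviate together steadily, so numbers were not treated as pairs. The mean r per comparison was -0.13 to 0.08, and that of single pairs -0.33 to 0.29. At 7 and at 9 weeks 2 of 4 pairs exceeded an r of 0.1.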

Additional observations from a re-analysis of the deposited data

Results flagged for a closer look

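Single mice stood apart from the rest of their group in 10 of 252 member-groups looked at, by Dixon's test on groups of 4 or 5, where chance gives about 1 in 20. In Npc1-/- mice these were Ccl24 at 11 weeks (mouse 4, highest, 5.96), Ccl6 at 7 weeks (mouse 1, highest, 7.95), Cxcl10 at 3 weeks (mouse 1, lowest, 6.14) and Cxcl9 at 11 weeks (mouse 2, highest, 6.06). In Npc1+/+ mice of 3 weeks they were Cx3cr1 (mouse 1, highest, 6.65) and Cxcl9 (mouse 3, highest, 6.71). Ccl5 stood apart in Npc1 oligo mouse 5 (highest, 8.22) and Cxcr4 in Npc1 oligo + NAC mouse 3 (lowest, 6.13). In the control oligo + NAC group they were Ccl3 (mouse 2, highest, 6.63) and Ccl6 (mouse 3, lowest, 7.94).

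The genotype difference varied between the 6 ages for 11 of 23 members (27.7% of all genes passed). The limma adjusted p was 9.24e-16 for Cxcr4, 3.46e-12 for Ccl3, 5.32e-11 for Ccl6, 5.42e-11 for Cxcl16 and 6.04e-06 for Cxcl9. It was 0.000269 for Ccl24, 0.00371 for Cxcl10, 0.00548 for Cx3cr1, 0.00581 for Cxcl14, 0.00707 for Cxcl12 and 0.0194 for Ccr3, the last lost under quantile normalisation (limma adjusted p = 0.0614).

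The genotype difference at 11 weeks differed from the oligo difference for 8 members, in the test of that gap itself. The limma adjusted p was 1.38e-11 for Cxcr4, 8.28e-08 for Ccl3, 4.80e-07 for Ccl6, 3.05e-05 for Ccl24 and 0.000371 for Cxcl9. It was 0.0198 for Ccl7, 0.0429 for Cxcl12 and 0.0457 for Cxcl11. For Ccl3 the Npc1+/+ and control oligo values lay below the array median, and it was kept for testing mainly through Npc1-/- and Npc1 oligo mice.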

How the results depend on the processing

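Of 148 alternative counts over 18 comparisons, 138 were within 1.5 times the reported count. Without the filter on low values the averaged genotype contrast called 19 members, 11 of them higher, where 12 were reported, since all 50 were then tested. For NAC with the control oligo, where 0 were reported, 1 was called with no filter, with quantile normalization and with arrays centred on their medians. For NAC with the Npc1 oligo, where 2 were reported, 1 was called with no filter, with centred arrays, with an intensity trend and with the replicate block, and 0 with only the compared groups fitted. The interaction of NAC and oligo gave 1 with no filter. The cause was not tested for these. Leaving out 1 mouse gave 2 to 4 members at 1 week, 0 to 1 for NAC with the control oligo, 1 to 2 for NAC with the Npc1 oligo, 0 to 2 for the interaction and 5 to 9 for the 11-week gap.

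Of 565 alternative values of 56 member results, 556 kept direction and call, 9 lost the call and 0 reversed. The 56 were taken from the largest differences in each contrast, and tests of any change over ages were not included. Of the fits without 1 mouse, only those with the lowest and highest estimate were counted. Smaller calls outside this count were less stable: Ccl24 at 3 weeks was kept in 2 of 8 fits without 1 mouse. With the replicate block the counts were 9 at 3 weeks, 11 at 5 and at 9 weeks, 14 for age in Npc1+/+ mice, 8 for the control oligo and 7 for the 11-week gap; the others apart from NAC with the Npc1 oligo were equal to those reported. The 9-week split of higher calls was 6 of 11 with centred arrays. Leaving out the 5 arrays with other-organ signal or numbered apart, chosen after seeing the data, lost the variation of Ccr3 and Cxcl10 between ages. Quantile normalization also ended the call of the 11-week gap for Ccl7 (largest limma adjusted p over all alternatives 0.150) and Cxcl12 (0.194). Levels near or below 5.54 may compress differences, so the low members are described with the least certainty.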
